A study of Rattus norvegicus with 6 samples.

Results

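Wnt feedback and inhibitor genes are the genes through which a cell damps or tunes its own response to Wnt proteins, and 10 of them were followed here in rat cells held in soft or stiff gel. They were taken by name from a deposited table of 33589 gene rows: the R-spondin receptors Lgr4 and Lgr5, the Dishevelled-binding proteins Nkd1 and Nkd2, the scaffold Axin2, and the secreted Sfrp1, Sfrp2, Sfrp4, Dkk3 and Wif1. All 10 names were found, each in a single row, and all 10 passed the level filter, a mean of 1 FPKM (a read count divided by gene length and library size). The cells were mesenchymal stem cells (MSCs) of rat bone marrow, stromal cells able to form bone, cartilage and fat. PolyA RNA was taken after 48 h in an SA hydrogel of 2 kPa in the soft group and 18 kPa in the stiff group, with 3 libraries each analysed here, although the series describes its profiling as done in quadruplicate. The labels name no strain, age, genotype or added agent other than the medium with serum and antibiotics that both groups received, and include no group outside a gel. They do not say whether libraries of a group came from separate cultures or animals, so p-values reflect the spread among libraries alone, and that spread may be technical.

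Wnt proteins bind Frizzled receptors and their LRP co-receptors, which stops a cytoplasmic complex built on Axin from destroying beta-catenin. Beta-catenin then works with TCF and LEF factors in the nucleus, and among the genes it can switch on are Axin2, Nkd1 and Lgr5. The secreted inhibitors act earlier, outside the cell: the Sfrp proteins and Wif1 bind Wnt proteins, while dickkopf proteins such as Dkk1 act on the LRP co-receptors. In MSCs the pathway is known for its influence on the choice between bone and fat.

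Recovered reads, the whole-number counts behind the FPKM values, came to between 14966354 and 16711527 per library. Soft replicate 1 stood somewhat apart, with a mitochondrial share of 2.15% of reads, where the other 5 libraries had 2.85% to 3.33%. Its counts differed from those of the other soft libraries by a chi-square per degree of freedom of 13.5 and 16.8, against 3.71 between soft replicates 2 and 3. Stiff libraries also differed from each other, by 5.43, 8.30 and 8.63. Of 12713 tested genes 128 were higher and 54 lower in stiff gel by limma at an adjusted p of 0.05. That division was 88 and 68 with every library scaled to the same FPKM sum, 103 and 68 after quantile normalization and 190 and 128 with voom on recovered reads. Equal sums moved the median change of all tested genes by -0.04 on the log2 scale, and no other scaling moved it by more. All 10 MSC markers looked for passed the level filter, led by the collagen genes Col1a1 and Col1a2. Macrophage and leukocyte markers were also present: 11 of 11 matched genes were above the filter, with Adgre1 and Cd14 the most abundant. Their summed level was 289.9 to 291.8 FPKM in soft and 273.2 to 286.4 FPKM in stiff gel, and 1 rose and 2 fell. Mitosis genes rose in 6 of 11 matched members, from a summed 43.8 to 47.4 FPKM in soft to 73.6 to 77.9 FPKM in stiff gel. The most abundant of these were Cdk1 and Cdc20. Osteoblast markers, led by Alpl and Ibsp, summed to 126.2 to 135.9 FPKM in soft and 109.3 to 120.2 FPKM in stiff gel, and 1 of 5 tested fell. Of the 5, 2 had a log2 fold change above 0 without passing, and are named after their values were seen. They were Bglap (0.34, limma adjusted p = 0.285) and Sp7 (0.08, limma adjusted p = 0.746). Of 2 tested cartilage markers, Sox9 and Acan, Acan rose, and the adipocyte markers Fabp4 and Pparg did not pass the test. Endothelial and erythroid lists had 0 genes above the filter, and Hbb, Hbb-b1, Hba-a1 and Hba-a2 were listed at 0 in all 6 libraries. The part of the leukocyte, osteoblast and mitosis genes in the results below was not tested. In bulk RNA a change in the share of cells that express a gene and a change in RNA per cell cannot be told apart.

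Of the 10 genes, 3 passed the test and all 3 were higher in stiff gel: Lgr5, Nkd2 and Sfrp1. Across all tested genes 1.43% passed in either direction and 1.01% as higher in stiff gel. The rise was 2.14-fold for Lgr5, 1.49-fold for Nkd2 and 1.32-fold for Sfrp1 in mean FPKM. The other 7 did not pass, and 6 of them had a log2 fold change above 0, with Wif1 below. The median log2 fold change of the 10 was 0.17, against 0.00 over all tested genes, of which 50.4% lay above 0. The genes were assembled with earlier results of these data known, so these counts describe them and are not independent evidence of a direction. With 1 library left out, fewer passed: 2 of the 10 without soft replicate 1, 1 without soft replicate 2, stiff replicate 2 or stiff replicate 3, and 0 without soft replicate 3 or stiff replicate 1. Calls over all tested genes fell too, from 182 to 159, 54, 46, 37, 38 and 26 in these fits, in the same order.

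**Figure D1:**
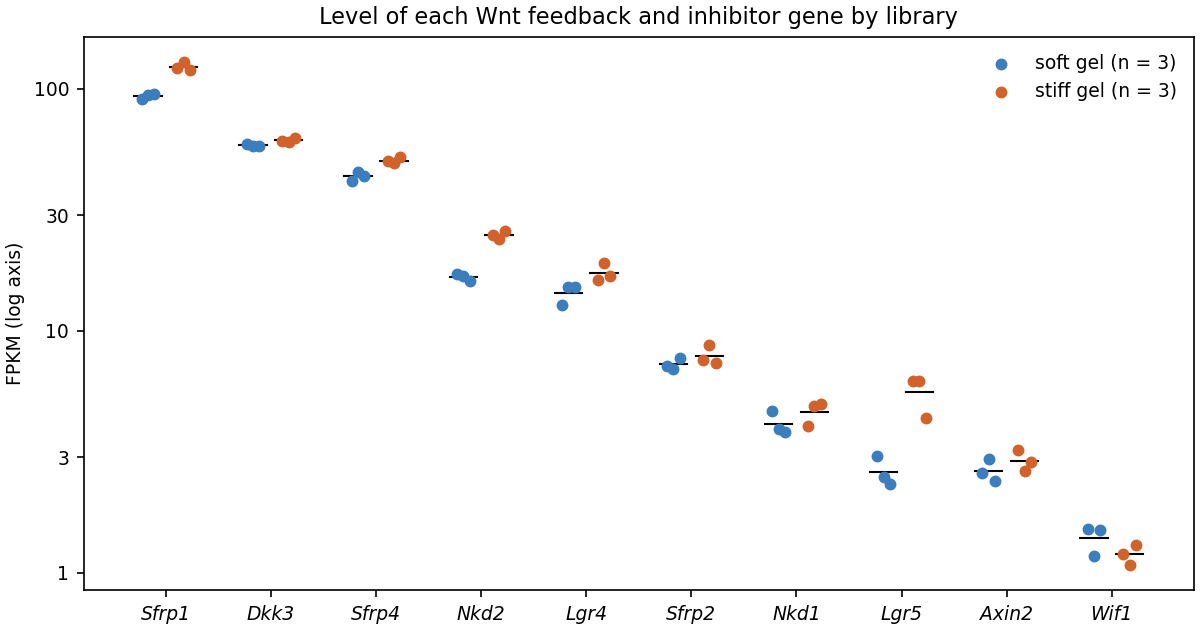
Deposited FPKM (log axis) of the 10 genes in each of 3 soft and 3 stiff libraries, ordered by mean level, with black bars at the group means. Stiff points lie wholly above soft points for Sfrp1, Dkk3, Sfrp4, Nkd2, Lgr4 and Lgr5, and the groups overlap for Sfrp2, Nkd1, Axin2 and Wif1.

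In 6 of the 10 genes all 3 stiff libraries lay above all 3 soft libraries, against 11.7% of all tested genes. With libraries scaled to equal FPKM sums this held for 5, all but Dkk3, against 7.91% of all tested genes. The direction of all 10 was the same under equal sums, FPKM from own library totals, quantile normalization and voom.

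Levels spanned from about 1 to over 100 FPKM, a scale that divides by gene length and so allows genes to be compared. Sfrp1 was the most abundant, between 90.5 and 129.1 FPKM over the 6 libraries, higher than 95.01% of tested genes. Dkk3 at 58.0 to 62.4 FPKM and Sfrp4 at 41.6 to 52.2 FPKM followed, and the ranges of these 3 did not overlap. Nkd2 came next at 16.0 to 25.9 FPKM and overlapped in range with Lgr4 at 12.7 to 19.1 FPKM, although Nkd2 was the higher in all 6 libraries. Sfrp2 at 6.93 to 8.74 FPKM stood below Lgr4 without overlap. Nkd1 at 3.799 to 5.001, Lgr5 at 2.32 to 6.23 and Axin2 at 2.39 to 3.21 FPKM overlapped with their neighbours in this order. Nkd1 exceeded Lgr5 in 4 of 6 libraries, and Lgr5 exceeded Axin2 in 4 of 6. Wif1 was the lowest at 1.08 to 1.51 FPKM, below Axin2 without overlap and above only 3.89% of tested genes.

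Lgr4 and Lgr5 encode receptors with leucine-rich repeats that bind R-spondins, secreted proteins that make a cell more responsive to Wnt. Lgr5 is also a common marker of stem cells in the gut and a target gene of the pathway. Lgr5 (ENSRNOG00000004221, chromosome 7 from 58448277 to 58587787 on the minus strand, in the table's coordinates, whose build it does not name) was at 3.03, 2.50 and 2.32 FPKM in soft replicates 1 to 3. In stiff replicates 1 to 3 it was at 6.22, 6.23 and 4.35 FPKM. Every stiff library was above every soft one, and stiff replicate 3 was the lowest of the stiff group. The means were 2.61 ± 0.369 and 5.60 ± 1.08 FPKM (SD, n = 3 per group). On the log2(FPKM + 1) scale the change was 0.86 with an SE of 0.145 (limma adjusted p = 0.0417), from a 95% limit of 0.52 to one of 1.20. Between 118 and 159 reads in soft and between 228 and 315 in stiff libraries stood behind these values.

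The call for Lgr5 rested close to the threshold. Lgr5 passed in 7 of 10 alternatives that kept all libraries, among them voom on recovered reads (adjusted p = 0.0143). In those it missed, the limma adjusted p was 0.0570 with equal FPKM sums, 0.0604 without the intensity trend and 0.113 without a level filter. It passed in 1 of 6 fits that left out a library, the one without stiff replicate 3 (adjusted p = 0.0478), and reached 0.157 without soft replicate 3. A row on the opposite strand, AABR07057170.1, lies within Lgr5 and was listed at no more than 0.195 FPKM.

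Lgr4 (chromosome 3 from 101051955 to 101152119) was at 12.7, 15.2 and 15.1 FPKM in soft and 16.2, 19.1 and 16.8 FPKM in stiff libraries. The groups did not overlap, with soft replicate 1 the lowest of all. The change of 0.26 (SE 0.0935) did not pass, with a limma adjusted p of 0.254 and a 95% interval from 0.04 to 0.48. The ratio of Lgr5 to Lgr4 within a library, which a single scaling factor per library leaves unchanged, was 0.238, 0.164 and 0.153 in soft and 0.384, 0.326 and 0.260 in stiff gel. All 3 stiff ratios exceeded all 3 soft ratios. The log2 ratio was 0.81 higher in stiff gel (exact permutation test, two-sided, p = 0.1; 0.1 adjusted over 4 pairs), the smallest p that 3 against 3 libraries allow. These 4 pairs of related genes were set up after the values were seen. Each divides a gene that passed the test by a relative that did not. A higher ratio in stiff gel was thus largely given in advance, and the p-values of the 4 pairs add no evidence.

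**Figure D2:**
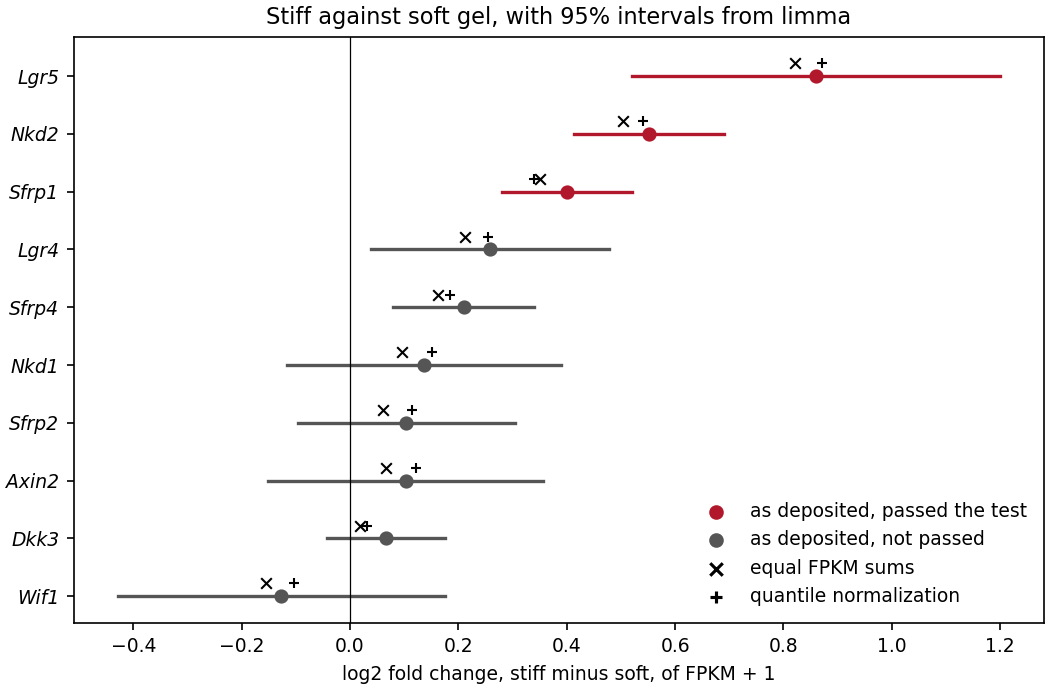
Change of each gene from soft to stiff gel as the log2 fold change of FPKM + 1, with 95% intervals from limma, and the same change at equal FPKM sums (crosses) and after quantile normalization (plus signs). The intervals of Lgr5, Nkd2, Sfrp1, Lgr4 and Sfrp4 lie above 0, of which the first 3 passed the adjusted test, and the interval of Wif1 spans 0 around -0.13. Intervals are not adjusted for the number of genes tested, and the share of all genes with an interval above 0 was not counted.

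Nkd1 and Nkd2, the naked cuticle proteins, bind Dishevelled in the cytoplasm and restrain the signal there. Nkd2 (ENSRNOG00000016103, chromosome 1 from 32058044 to 32084877 on the plus strand) was at 17.2, 16.9 and 16.0 FPKM in soft and 24.9, 24.01 and 25.9 FPKM in stiff libraries. The groups were parted by a gap wider than the range within either group. Means were 16.7 ± 0.592 and 24.9 ± 0.940 FPKM (SD, n = 3 per group). Its change of 0.55 (SE 0.0592; limma adjusted p = 0.0086; 95% interval 0.41 to 0.69) had the smallest p of the 10, rank 38 among 12713 tested genes. Nkd2 passed under all 11 alternatives that kept the 6 libraries and in 3 of 6 fits without 1 library. It missed without soft replicate 3, stiff replicate 1 or stiff replicate 3, with adjusted p-values of 0.0564, 0.0611 and 0.0618.

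Nkd1 (chromosome 19 from 19436333 to 19509087), the better known feedback target of the pair, was at 4.66, 3.92 and 3.799 FPKM in soft and 4.04, 4.87 and 5.001 FPKM in stiff libraries. These groups overlapped, since soft replicate 1 was above stiff replicate 1. The change was 0.14 (SE 0.108; limma adjusted p = 0.598; 95% interval -0.12 to 0.39). Within a library Nkd2 exceeded Nkd1 by a ratio of 3.68, 4.31 and 4.22 in soft and 6.16, 4.94 and 5.18 in stiff gel. The log2 ratio was 0.41 higher in stiff gel without overlap (exact permutation test, p = 0.1, again the smallest possible; 0.1 adjusted over 4 pairs).

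Axin2 builds the complex that destroys beta-catenin and is the most widely used readout of Wnt signalling through beta-catenin. It lay on chromosome 10 from 97212432 to 97239642 and was at 2.58, 2.94 and 2.39 FPKM in soft and 3.21, 2.64 and 2.86 FPKM in stiff libraries. The groups overlapped. The change was 0.10 (SE 0.108; limma adjusted p = 0.707; 95% interval -0.15 to 0.36). At this low level the scale of log2(FPKM + 1) understates a change. Between 155 and 192 reads per library stood behind it.

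The upstream sequences of the feedback genes are shown because TCF and LEF factors act through short DNA motifs, and Axin2 and Nkd1 are known targets of the pathway. The RefSeq promoter table, on build GRCr8, held 6 of the 10 genes: Axin2, Lgr4, Nkd1, Nkd2, Sfrp2 and Wif1. The 250 bases before each annotated start were searched on both strands for CTTTGAA or CTTTGAT, and also for CTTTGTA or CTTTGTT, and the matches found did not overlap. Among all 33469 promoters tabulated, in windows of the same length, 14.9% held at least 1 match and 1.73% at least 2. Axin2 held 2, CTTTGAA from base -232 to -226 and CTTTGAT from -132 to -126 relative to the start. Nkd1 held 1, CTTTGAT from -141 to -135. These letters were not found in the window of Nkd2, Lgr4, Sfrp2 or Wif1. GGAATG, a motif of TEAD factors, occurred in 12.1% of all promoters and in 0 of the 6. The 3 sequences below run 5′ to 3′ on the gene's strand and end at the base before the start, with the TCF/LEF matches in capitals. They lie at chr10:94398535-94398784 on the plus strand (Axin2), chr19:34722847-34723096 on the minus strand (Nkd1) and chr1:31272282-31272531 on the plus strand (Nkd2).
Axin2: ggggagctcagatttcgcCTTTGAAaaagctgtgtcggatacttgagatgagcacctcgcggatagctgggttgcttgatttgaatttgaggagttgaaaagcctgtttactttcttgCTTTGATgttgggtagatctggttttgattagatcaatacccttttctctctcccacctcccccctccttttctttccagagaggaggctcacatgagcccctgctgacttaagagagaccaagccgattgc
Nkd1: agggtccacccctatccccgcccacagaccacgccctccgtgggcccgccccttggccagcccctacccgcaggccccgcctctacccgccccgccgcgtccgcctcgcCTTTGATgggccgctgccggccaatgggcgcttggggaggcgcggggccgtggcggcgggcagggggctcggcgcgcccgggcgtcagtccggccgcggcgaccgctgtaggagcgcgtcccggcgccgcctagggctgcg
Nkd2: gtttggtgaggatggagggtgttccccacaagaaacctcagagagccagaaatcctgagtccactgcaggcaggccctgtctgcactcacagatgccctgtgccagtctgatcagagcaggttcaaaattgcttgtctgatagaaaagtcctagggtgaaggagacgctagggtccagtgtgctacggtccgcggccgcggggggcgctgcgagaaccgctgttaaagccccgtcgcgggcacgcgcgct

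Base composition differed among these windows, at 47.6% G and C in Axin2, 80.0% in Nkd1 and 59.6% in Nkd2, against a median of 51.2% over all promoters in the table. A match is a run of letters and not a measured binding site.

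Sfrp1, Sfrp2 and Sfrp4 are secreted proteins with a domain like that of the Frizzled receptors, through which they bind Wnt proteins outside the cell. Sfrp1 (ENSRNOG00000017783, chromosome 16 from 73372007 to 73410777 on the minus strand) was at 90.5, 94.6 and 94.9 FPKM in soft and 122.2, 129.1 and 119.4 FPKM in stiff libraries. The lowest stiff library was well above the highest soft one. The means were 93.3 ± 2.44 and 123.6 ± 5.0 FPKM (SD, n = 3 per group), a change of 0.40 on the log2 scale (SE 0.0514; limma adjusted p = 0.0179; 95% interval 0.28 to 0.52). It passed in 10 of the 11 alternatives that kept all libraries, the exception being the fit without the intensity trend (adjusted p = 0.0511). It passed in 1 of 6 fits without 1 library, the one without soft replicate 1 (0.0305). The other 5 gave between 0.0658 and 0.0879, with the log2 fold change between 0.37 and 0.42 over all 6 fits.

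Sfrp4 (chromosome 17 from 47297489 to 47394328) was at 41.6, 45.4 and 43.7 FPKM in soft and 50.1, 49.3 and 52.2 FPKM in stiff libraries. The groups did not overlap, but the change of 0.21 (SE 0.0554) missed the threshold (limma adjusted p = 0.139; 95% interval 0.08 to 0.34), and passed only with array weights among the alternatives (0.0416). A row on the opposite strand, Nme8, lies within Sfrp4 and was listed at no more than 0.0556 FPKM. Sfrp2 (chromosome 2 from 182723854 to 182731764) was at 7.12, 6.93 and 7.74 FPKM in soft and 7.60, 8.74 and 7.35 FPKM in stiff libraries, which overlapped. Its change was 0.10 (SE 0.0854; limma adjusted p = 0.617; 95% interval -0.10 to 0.30).

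The ratios of Sfrp1 to Sfrp2 and to Sfrp4 were higher in every stiff library than in any soft one. Its ratio to Sfrp2 was 12.7, 13.6 and 12.3 in soft and 16.1, 14.8 and 16.2 in stiff gel, a log2 difference of 0.29. Its ratio to Sfrp4 was 2.18, 2.08 and 2.17 in soft and 2.44, 2.62 and 2.29 in stiff gel, a log2 difference of 0.19. Neither ratio overlapped between groups, and the exact permutation test gave p = 0.1 for each, the smallest the design allows (0.1 adjusted over 4 pairs).

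**Figure D3:**
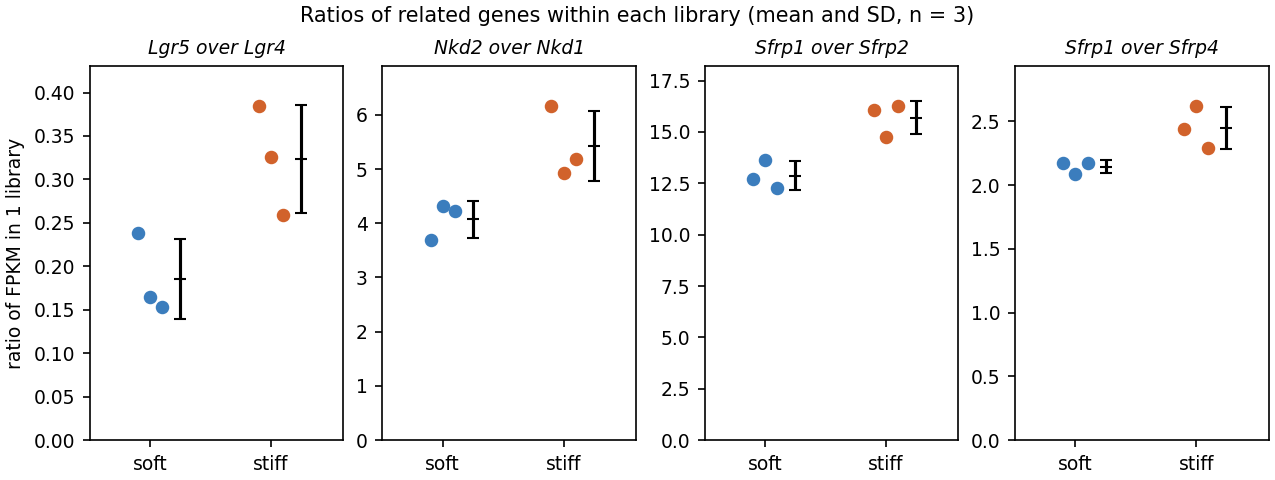
Ratio of FPKM between related genes inside each library, for 3 soft and 3 stiff libraries, with the mean and SD of each group beside the points and axes starting at 0. In all 4 panels the stiff points lie above the soft points, from 0.153 to 0.238 against 0.260 to 0.384 for Lgr5 over Lgr4. The pairs were set after the values were seen, each with a gene that passed the test as numerator, so this direction was largely given.

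Dkk3 is a divergent member of the dickkopf family of secreted Wnt inhibitors. It lay on chromosome 1 from 176940693 to 176983045 and varied little, at 59.3, 58.2 and 58.0 FPKM in soft and 61.1, 60.4 and 62.4 FPKM in stiff libraries. The stiff values were all above the soft ones as deposited, but not at equal FPKM sums. Its change of 0.07 (SE 0.0462; limma adjusted p = 0.542) had a 95% interval from -0.04 to 0.17. In these libraries that interval lay below the change of 0.40 seen for Sfrp1. Wif1, which binds Wnt proteins through a domain of its own, lay on chromosome 7 from 63094911 to 63165159. It was at 1.51, 1.17 and 1.51 FPKM in soft and 1.20, 1.08 and 1.31 FPKM in stiff libraries, from 39 to 57 reads each. The groups overlapped, and the change was -0.13 (SE 0.129; limma adjusted p = 0.694; 95% interval -0.43 to 0.18).

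Together the 5 secreted inhibitors followed here summed to 200.04, 206.2 and 205.9 FPKM in soft and 242.2, 248.6 and 242.6 FPKM in stiff libraries. Sfrp1 made up 45.3% to 46.1% of that sum in soft and 49.2% to 51.9% in stiff gel. Dkk3 went from 28.2% to 29.6% of the sum in soft to 24.3% to 25.7% in stiff gel, while its own mean was 58.5 and 61.3 FPKM. Sfrp1 passed the test on these same values and is the largest part of the sum. Its higher share and the lower share of Dkk3 were thus largely given in advance. Wif1 held under 1% of the sum in every library, at most 0.757%.

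The genes whose pattern over the 6 libraries was nearest to that of each called gene were sought among the 8882 tested genes averaging 5 FPKM or more. Nearness was the root mean square difference of log2(FPKM + 1) after subtracting each gene's own mean. For Nkd2 the nearest was Phgdh (0.0178), the first enzyme of serine synthesis, followed by the matrix genes Ccdc80 (0.0498) and Col11a1 (0.0528). Sfrp1 was nearest to the matrix proteoglycan Fmod (0.0216), the nuclear import factor Kpna2 (0.0268) and the amino acid transporter Slc1a4 (0.0360). Lgr5 was less closely matched, with the cyclin gene Ccnb1 (0.143), Thbs1 (0.151), which encodes thrombospondin 1, and the prostaglandin transporter Slco2a1 (0.161). These 9 genes share the same libraries and depth with the called genes, and nearness says nothing of shared control.

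Outside these 10, none of the tested Wnt pathway genes passed. The other lists held 98 genes by role, of which 96 were matched by name and 62 reached the level filter. With limma 0 of the 62 were called, 8 had an unadjusted p under 0.05, and the smallest adjusted p was 0.122. Across all tested genes 1.43% were called, a share at which a list of 62 can easily hold none. The share of all genes with an unadjusted p under 0.05 was not counted, so the 8 cannot be read as a result about the pathway. Voom on recovered reads also called 0. Array weights called 2, Wnt5a (adjusted p = 0.0427) and Rspo1 (adjusted p = 0.0314), and leaving out soft replicate 1 called Rspo1 alone (0.0482). The same fits called 685 and 159 of all 12713 tested genes. The median log2 fold change of the 62 was -0.05, with 25 above 0. In 6 of the 62 all stiff libraries lay above all soft ones, against 11.7% of all tested genes. In 8 of the 62 all stiff libraries lay below all soft ones, and that share over all genes was not counted.

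**Figure D4:**
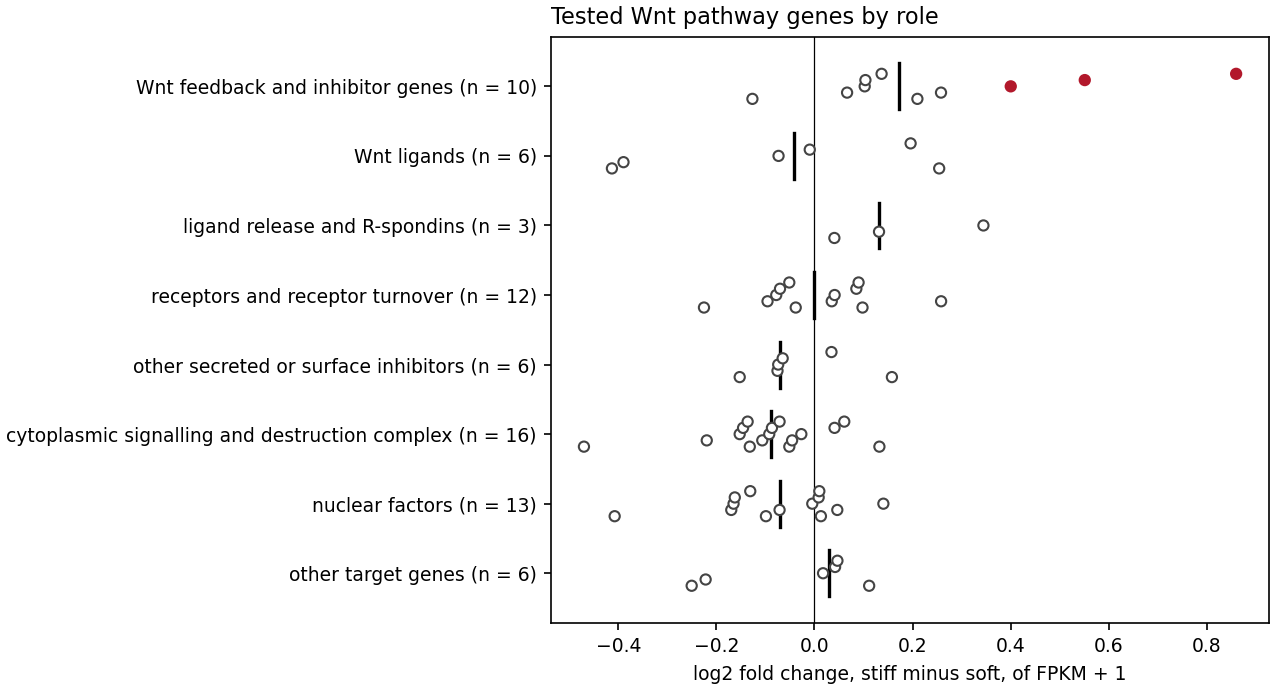
Log2 fold change of FPKM + 1, stiff minus soft, for the tested genes of each Wnt pathway list, 1 point per gene, with a black bar at the list's median. Filled points passed the test and occur only in the top row, where Sfrp1, Nkd2 and Lgr5 lie at 0.40, 0.55 and 0.86. All 62 genes of the other rows are open, where 1.43% of all tested genes passed.

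Among 19 Wnt ligands 6 reached the filter and 4 were listed at 0 in every library. Wnt5a, a ligand best known for signalling without beta-catenin, was the most abundant, averaging 76.9 ± 5.08 FPKM in soft gel and 91.8 ± 3.30 in stiff gel (limma adjusted p = 0.122). Wnt9a was at 17.6 ± 4.11 and 12.8 ± 0.856 FPKM (limma adjusted p = 0.253). Of 7 genes for ligand release and R-spondins 3 reached the filter. Wls, which carries Wnt proteins to the cell surface, was at 76.2 ± 6.79 and 78.2 ± 1.02 FPKM, and Porcn, which attaches their lipid, at 59.0 ± 2.62 and 64.7 ± 1.63 FPKM. Rspo1 encodes a ligand of Lgr4 and Lgr5 and is named here after its values were seen. It was at 9.92, 6.84 and 7.68 FPKM in soft and 10.8, 10.5 and 10.2 FPKM in stiff libraries. The stiff values were all above the soft ones, and soft replicate 1 lay nearest to them (log2 fold change 0.34, limma adjusted p = 0.240). Rspo2, Rspo3 and Rspo4 were all below the filter.

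Receptor genes numbered 12 tested of 19 listed, with Fzd1 at 273.6 ± 7.46 and 280.4 ± 2.14 FPKM and Ptk7, a co-receptor, at 139.2 ± 12.8 and 148.0 ± 7.47 FPKM. Rnf43, an enzyme that removes Frizzled from the surface and that R-spondins and Lgr receptors block, was listed at 0.06 FPKM in both groups. Znrf3, on the same list for receptor turnover, was not found by name, so its level is not known. Lgr6, the third receptor of the Lgr4 and Lgr5 family, was at 0.484 and 0.363 FPKM, under the filter. Of 12 other inhibitors 6 were tested. Igfbp4, an IGF-binding protein that also acts on the Wnt co-receptors, was at 642.5 ± 48.9 and 613.7 ± 34.3 FPKM, and Tpbg at 26.8 ± 2.48 and 29.98 ± 2.02 FPKM. Dkk1, Dkk2, Sost and Sostdc1 were listed at 0 in all 6 libraries.

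The cytoplasmic list had 16 tested genes of 19, led by Ctnnb1, which encodes beta-catenin, whose FPKM averaged 245.5 ± 2.27 in soft gel and 233.6 ± 4.21 in stiff gel (limma adjusted p = 0.476). Csnk1a1, a kinase that marks beta-catenin for destruction, was at 135.1 ± 7.46 and 139.0 ± 6.98 FPKM. Axin1, on the same list, was not found by name, so its level is not known. Among 13 tested nuclear factors of 14, the co-activator genes Bcl9l and Pygo2 were at 42.7 ± 6.59 and 37.7 ± 2.85 FPKM and at 26.6 ± 0.890 and 26.8 ± 2.69 FPKM. Lef1 was under the filter at 0.983 and 0.904 FPKM. Of 8 other target genes 6 were tested, and the most abundant were Cd44 at 127.6 ± 12.3 and 131.5 ± 5.83 FPKM and Ccnd1, which encodes cyclin D1, at 39.1 ± 2.50 and 42.3 ± 0.632 FPKM. Neither passed, with limma adjusted p-values of 0.829 and 0.441.

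**Figure D5:**
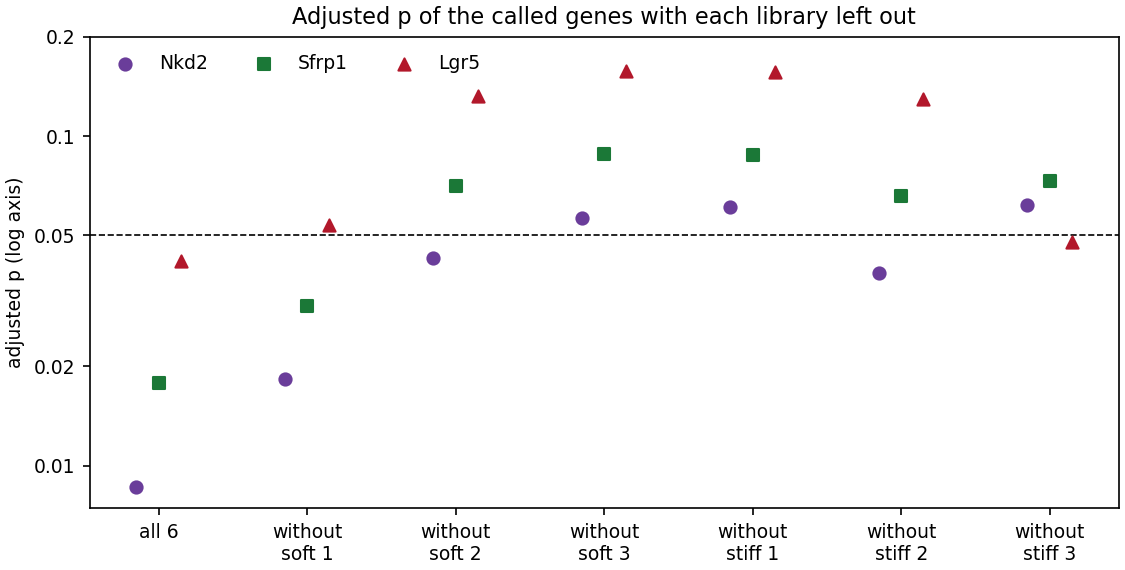
Adjusted p from limma (log axis) for Nkd2, Sfrp1 and Lgr5 with all 6 libraries and with each library left out in turn, with a dashed line at 0.05. Nkd2 stays under the line in 3 of 6 left-out fits and Sfrp1 and Lgr5 in 1 each, while without soft replicate 3 or stiff replicate 1 all 3 points lie above it. The left-out fits called 26 to 159 of all tested genes, against 182 with all 6 libraries.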

How the data were processed

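The authors deposited FPKM per gene and library, and HTSeq, Cufflinks 2.1.1 and Bowtie 0.12.9 are named, with the mouse builds mm10 and GRCm38, per the submitters' processing notes; the table itself uses rat Ensembl identifiers and states no build. How strand and multiply mapped reads were treated is not stated by labels or table. FPKM times gene length was a whole multiple of 1 step per library for 100% of values above 0 (within 0.001 of a whole number), which gave the recovered reads used for depth and voom. For a gene of 1 kb, 3 reads equal 0.180 to 0.200 FPKM.

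Tests were made for genes averaging 1 FPKM or more, on log2(FPKM + 1), which understates changes of low genes, with limma 3.58.1 in R 4.3.3: a group term alone, an intensity trend, two-sided tests and Benjamini-Hochberg adjustment over all 12713 genes at 0.05. Where a change is given as fold, it is the ratio of the 2 mean FPKM. The script was tested on simulated data with independent noise of equal spread in each library, which does not cover the uneven spread among these libraries. The 10 genes and the lists were chosen with earlier results of these data known. Named genes were the 10, the called genes of each Wnt list or its 2 most abundant, and the 3 nearest patterns per called gene. The 2 most abundant markers per list were also named. Others are values at 0 or under the filter, genes not found by name, or genes said to be named later. Alternatives changed pseudocount, filter, scaling, variance model, weights and test, added a replicate block and left out each library; FPKM from own totals and the ratios of related genes were added after the data were seen. No 2 libraries of a group agreed within sampling noise (chi-square per degree of freedom 3.71 or more).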

Additional observations from a re-analysis of the deposited data

How the results depend on the processing

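No fold change of the 10 genes changed sign under any of the alternatives run. Pseudocounts of 0.1 and 0.5 left 3 of the 10 called. The number of all genes called was 182 as reported, 92 with no filter, 112 without the intensity trend, 685 with array weights and 318 with voom on recovered reads. Of the 10 genes, 1 was called without the intensity trend, Nkd2. Array weights called 2 of the other Wnt pathway genes, Wnt5a and Rspo1. With 1 library left out the calls ran from 26 to 159 over all genes, from 0 to 2 among the 10, and from 0 to 1 among the other pathway genes. The 2 fits that called 0 of the 10 were those without soft replicate 3 and without stiff replicate 1. At a mean of at least 5 FPKM, Lgr5, Nkd1, Axin2 and Wif1 had no test. The replicate block called 105 genes, 3 of the 10 and 0 of the other pathway genes. Replicate numbers showed no clear pairing of the libraries. Deviations of same-numbered soft and stiff libraries correlated across genes at 0.0552, 0.116 and -0.0785, and soft replicate 1 correlated best with stiff replicate 3 (0.137). With 3 libraries per group such values cannot exclude pairing. Depth limits Wif1 most, with 39 to 57 reads per library.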
